A study of Homo sapiens with 63 samples.

Results

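The comparison set fractions 18 to 22 of a gradient from amino acid starved HEK293 cells against fractions 8 to 12 of the same gradient. The samples were chosen by their condition and fraction number, which gave 5 fractions on each side and 10 of the 63 samples of the series. HEK293 is a line from human embryonic kidney. Its cells were grown in DMEM with serum (log phase), starved of serum for 2 h, or starved of amino acids for 1 h in Earle's balanced salt solution with MEM vitamins, serum and antibiotics. All 3 groups received cycloheximide, which stalls ribosomes on mRNA, before lysis. Each lysate was spread over 1 polysome gradient per condition, and poly(A)+ RNA of fractions 3 to 22 was sequenced, which makes 60 fraction samples beside 3 lysates that were not analysed here. The 5 fractions of a zone are neighbouring parts of 1 gradient from 1 culture and not replicates. A spread over them is therefore a spread within that gradient, and p-values were not computed. Which end of the numbering was heavier is not stated in the labels, so positions are given by fraction number.

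A polysome gradient separates mRNAs by the mass of the particle they sit in, from free ribonucleoprotein through single ribosomes to mRNAs carrying many ribosomes. Amino acids act on the kinase complex mTORC1, and mRNAs that begin with a 5′ terminal oligopyrimidine (TOP) tract, which code for ribosomal proteins and translation factors, are known to leave polysomes when mTORC1 is inactive. Amino acid shortage also activates the kinase GCN2, and mRNAs with upstream open reading frames such as ATF4 are then known to be translated better.

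The values are the authors' gene values, rescaled so that the genes of each fraction sum to 1000000 after the spike-ins were dropped, and are called scaled values here. The table is named as TPM, a unit per transcript length, and levels of different genes are compared on that scale alone. Of 11074 genes, 7655 had a mean of at least 5 over the 10 fractions and entered the comparison. The difference of a gene is its mean log2(value + 1) over fractions 18 to 22 minus that over fractions 8 to 12, a scale that understates differences of low genes. A gene was past the size rule when this difference was at least 1 in size and the 5 and 5 fractions did not overlap, which is a rule of size and not a test. Neighbouring fractions within a zone correlated at 0.962 to 0.978 over the log2 values of these genes, and fractions of different zones at 0.544 to 0.859, as a description across genes. Fraction 22 stood apart in the authors' own scale, with a column total of 247998 where the median of fractions 18 to 22 was 5573030, and spike-ins took 2.28% of its column against a median of 0.635%. Differences without any 1 fraction are summarised among the processing alternatives. Of 10 genes known from HEK293, 8 had a row in the table, and PAX2 and LHX1 had none. Mean scaled values were 915 for NEFM, 514 for VIM, 401 for NEFL and 77.9 for KRT18. They were lower for KRT8 (19.7), ENO2 (9.51), CDH2 (5.00) and INA (3.04). None of the 10 markers of blood, liver, other epithelium, fibroblasts, endothelium or muscle had a row in the table used. Ribosomal protein genes, GAPDH and EEF1A1 have many near-identical copies in the genome, so how reads were split among those copies is uncertain.

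The sequence around the start of a gene shows the TOP tract that runs through the results. RefSeq promoter windows (GRCh38.p14) were cropped to 30 bases, from 10 before to 20 after the start that the table gives, and searched on both strands for CTTTC, for CTTTT, for CTCTT, for CTTCC and for CTTCT, motifs that overlap one another. Capitals mark the merged matches on the gene's strand. The first 5 sequences are of TOP mRNAs, RPS29 is a ribosomal protein gene without a match in this window, and HNRNPA2B1 and PGK1 are shown for contrast. They lie at chr6:73521013-73521042 (minus strand) for EEF1A1, chr6:132814559-132814588 (plus) for RPS12, chr12:56116623-56116652 (plus) for RPL41, chr13:45341164-45341193 (minus) for TPT1, chr19:3985444-3985473 (minus) for EEF2, chr14:49598691-49598720 (minus) for RPS29, chr7:26200727-26200756 (minus) for HNRNPA2B1 and chrX:78104238-78104267 (plus) for PGK1.
EEF1A1: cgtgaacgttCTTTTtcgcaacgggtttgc
RPS12: cggatgaggcCTCTTTCcctgccgccgccg
RPL41: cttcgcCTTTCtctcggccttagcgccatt
TPT1: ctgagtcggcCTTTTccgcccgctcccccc
EEF2: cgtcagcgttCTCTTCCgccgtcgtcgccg
RPS29: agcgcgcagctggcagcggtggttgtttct
HNRNPA2B1: ctctagcggcagtagcagcagcgccgggtc
PGK1: cccgcgcggtgttccgcattctgcaagcct
Of all 27305 promoters in the table, 18.8% held a match in this window, and 16.9% held one on the other strand. Of the 6442 tested genes with a promoter, 19.5% held a match, and 15.8% held one on the other strand. Among tested ribosomal protein genes with a promoter, 50 of 63 held a match (79.4%), against 4.76% on the other strand, and among other TOP mRNAs 13 of 16 did. The share was 15.0% of the 879 genes higher in fractions 18 to 22 relative to the median gene (each fraction centred on the median log2 value of the tested genes), and 27.6% of the 1291 lower ones. Outside the ribosomal protein and TOP lists, 24.3% of the 1215 lower genes held a match. A match is a description of these letters and not a mapped start of transcription.

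Ribosomal protein mRNAs filled most of the signal of fractions 8 to 12 and much less of fractions 18 to 22. They made up 57.0% to 78.9% of a fraction in 8 to 12 (mean 70.5% ± 8.33, SD, n = 5 fractions) and 13.1% to 28.1% in 18 to 22 (mean 20.5% ± 5.41). The zones did not overlap. Other groups took a larger share of fractions 18 to 22, and the median difference of all tested genes was 2.15, a ratio of 4.42. Glycolysis enzymes made up 0.471% of fractions 8 to 12 and 2.70% of fractions 18 to 22. Proteasome subunits made up 0.217% and 1.60%, chaperonin CCT subunits 0.134% and 1.11%, and S phase genes 0.0647% and 0.825%. The 100 most abundant genes held 79.5% of fractions 8 to 12 and 32.2% of fractions 18 to 22. Of those 100, 79 were ribosomal protein genes in the first zone and 54 in the second.

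**Figure D1:**
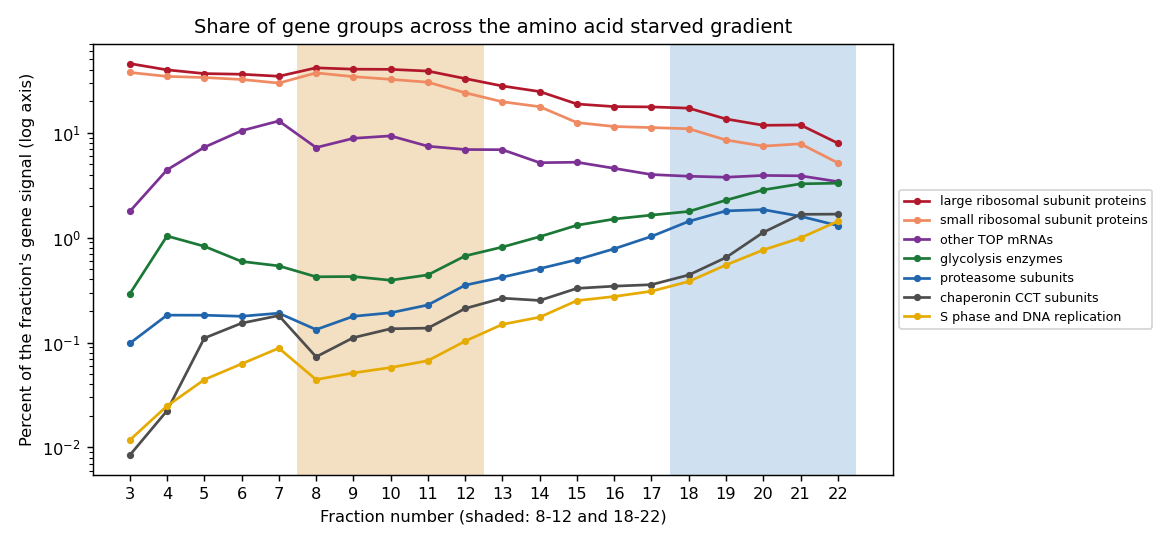
Percent of each fraction's gene signal held by 7 gene groups across the amino acid starved gradient, with fraction number on the horizontal axis and a log vertical axis. Points are single fractions, and shading marks fractions 8 to 12 and 18 to 22. Both ribosomal protein groups lie lower in the second shaded zone than in the first, and the glycolysis, proteasome, chaperonin and S phase groups lie higher.

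Since one large class takes up so much of these shares, 2 readings are given throughout. As a share of the fraction, 5348 genes (69.9% of those tested) were past the size rule as higher in fractions 18 to 22 and 209 (2.73%) as lower. Relative to the median gene, where each fraction was centred on the median log2 value of the tested genes, 1039 (13.6%) were higher and 1544 (20.2%) lower. All 1039 were also higher as a share, and all 209 were also lower relative to the median gene. ANGEL2, GALNT1, GRAMD1A, KCTD2 and PALM, listed after their values were seen, were past the rule in opposite directions in the 2 readings. Relative to the median gene, differences ran from -5.30 to 3.66. On the authors' deposited scale, without rescaling, the median difference of all tested genes was -0.24, and on the spike-in scale it was 1.52. The medians of the 3 ribosomal protein and TOP lists were below 0 on all of these scales. Those of glycolysis, synthetases, heat shock, CCT and endoplasmic reticulum chaperones, proteasome, initiation factors, ATF4 targets, immediate early, cholesterol, S phase, mitotic and SR genes were above 0 on all. Those of the other 10 lists changed sign with the scale. The median SD over the 5 fractions of a zone was 0.54 in fractions 8 to 12 and 0.42 in fractions 18 to 22 on the log2 scale.

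Ribosomal protein mRNAs were lower in fractions 18 to 22. Of the 47 large subunit genes, 42 were past the size rule as lower and none as higher, with a median difference of -1.82. Of the 32 small subunit genes, 30 were lower and none higher, with a median of -1.88. These counts stand against 2.73% of all tested genes. Relative to the median gene all 47 and all 32 were lower, with medians of -3.88 and -3.93, against 20.2% of all tested genes. As a share, RPL14, RPL15, RPL24, RPL3, RPL8, RPS7 and FAU were not past the rule, of which all but RPL3 and FAU were listed after their values were seen.

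RPS12, a protein of the small subunit (chromosome 6, 132814569 to 132817564, GRCh38.p14), had the lowest difference of all tested genes. The values of RPS12 were 9732, 9493, 10529.5, 8819.6 and 6022 in fractions 8 to 12 and 1323, 941, 911, 1042 and 567 in fractions 18 to 22. Every fraction of 18 to 22 lay below every fraction of 8 to 12, by a ratio of zone means of 9.32 and a difference of -3.25. RPL41, a protein of the large subunit known as one of the shortest human proteins, was nearly level across fractions 8 to 11. RPL41 stood at 16296, 17037, 17153, 17213 and 13995 in fractions 8 to 12 and at 2512, 1850.4, 1850.2, 1954 and 1149 in fractions 18 to 22. Its difference was -3.17, and the zones did not overlap. RPS29, a protein of the small subunit, was the most abundant mRNA of fractions 8 to 12. RPS29 had scaled values of 82278, 70453, 64322, 58180.5 and 41889 in fractions 8 to 12 and 11103, 8500.5, 8047, 8992 and 5318 in fractions 18 to 22. It was the third most abundant in fractions 18 to 22, behind EEF1A1 and RPL14, with a difference of -2.92. RPS27, RPL39 and RPS25 followed at -2.84, -2.61 and -2.58. RPS12, RPL41, RPS29, RPS27, RPL39 and RPS25 were chosen as lowest among genes past the size rule, which required zones without overlap. At the other end of this class, RPL3, a large subunit protein near the peptidyl transferase centre, had a difference of only -0.46. The values of RPL3 were 3979, 5342, 4732, 5522 and 6016 in fractions 8 to 12 and 4074, 4284, 3533, 3175 and 3503 in fractions 18 to 22. Its zones overlapped. FAU, which codes for a small subunit protein fused to a ubiquitin-like domain, was at 0.36, the highest of the ribosomal protein genes.

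The other TOP mRNAs, mostly translation factors, were lower less uniformly. Of 23, 9 were past the rule as lower as a share and 2 as higher, against 2.73% and 69.9% of all tested genes. The higher ones were VIM and NPM1, the latter listed after its values were seen. Relative to the median gene 20 were lower and none higher, against 20.2% and 13.6% of all tested genes. The median difference was -0.56 as a share and -2.62 in this reading. EEF1A1, the factor that brings aminoacyl-tRNA to the ribosome (chromosome 6, 73515750 to 73521032), was the third most abundant mRNA of fractions 8 to 12 and the first of fractions 18 to 22. EEF1A1 stood at 27540.3, 39732, 45975, 33125 and 29724 in fractions 8 to 12 and at 10451, 9568, 10384, 11525 and 9997 in fractions 18 to 22. The zones did not overlap, the ratio of zone means was 3.39 in favour of fractions 8 to 12, and the difference was -1.74. TPT1, the translationally controlled tumour protein, had the lowest difference of the list. TPT1 had scaled values of 9477, 9046, 8970.2, 6319 and 4429 in fractions 8 to 12 and 2539, 1897, 1561, 1576 and 1134 in fractions 18 to 22. The difference was -2.13, again without overlap. EEF2, the translocation factor, was at -0.41 and PABPC1, the poly(A)-binding protein, at -0.56. Relative to the median gene they stood at -2.47 and -2.62. VIM, the intermediate filament protein vimentin, had the highest difference of the list at 1.85, and stood near the median gene at -0.20.

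Of the 209 genes lower as a share, 72 were ribosomal protein genes. The naming rule added 2 genes outside the class. LSM10, a component of the U7 snRNP that processes histone mRNA, had a difference of -2.83. The values of LSM10 were 104, 151, 139.9, 129.7 and 107 in fractions 8 to 12 and 19.8, 16.2, 15.4, 20.8 and 12.6 in fractions 18 to 22. OST4, a very small subunit of oligosaccharyltransferase, had a difference of -2.61. OST4 stood at 327, 339, 258, 381 and 548 in fractions 8 to 12 and at 87.4, 71.7, 53.4, 51.7 and 38.5 in fractions 18 to 22. In both genes every fraction of 18 to 22 was below every fraction of 8 to 12, which their choice among genes past the size rule required.

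The highest differences belonged to genes of several functions. ANP32A, an acidic nuclear phosphoprotein (chromosome 15, 68778535 to 68820895), had the highest difference of all tested genes. ANP32A had scaled values of 9.69, 9.01, 5.37, 6.90 and 16.7 in fractions 8 to 12 and 231, 522, 775, 634 and 631 in fractions 18 to 22. The difference was 5.71, a ratio of zone means of 58.6. HNRNPA2B1, an RNA-binding protein of the nucleus (chromosome 7, 26189927 to 26200746), was next among genes with a mean of at least 50. The values of HNRNPA2B1 were 46.4, 29.2, 25.3, 33.5 and 48.6 in fractions 8 to 12 and 476, 1333, 3150.3, 3430.3 and 3482 in fractions 18 to 22. Its difference was 5.69, and its values within fractions 18 to 22 spanned a wide range, with an SD of 1.25 on the log2 scale. PCNA, the sliding clamp of DNA replication (chromosome 20, 5114953 to 5126622), peaked in fraction 20. PCNA stood at 10.2, 10.4, 12.5, 20.2 and 45.2 in fractions 8 to 12 and at 539, 875, 1129, 919 and 607 in fractions 18 to 22. Its difference was 5.48. PGK1, a glycolysis enzyme (chromosome X, 78104248 to 78129295), peaked in fraction 21. PGK1 had scaled values of 14.2, 13.7, 19.5, 19.0 and 34.2 in fractions 8 to 12 and 240.5, 467, 1113, 1919.6 and 1899 in fractions 18 to 22. Its difference was 5.42. EIF4A3, the helicase of the exon junction complex, was at 5.42, C21orf59 at 5.41, RAB7A, a GTPase of late endosomes, at 5.38, and PDHA1, a subunit of pyruvate dehydrogenase, at 5.12. In all 8 genes the zones did not overlap, which their choice among genes past the size rule required. Relative to the median gene these 8 genes stood between 3.07 and 3.66.

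**Figure D2:**
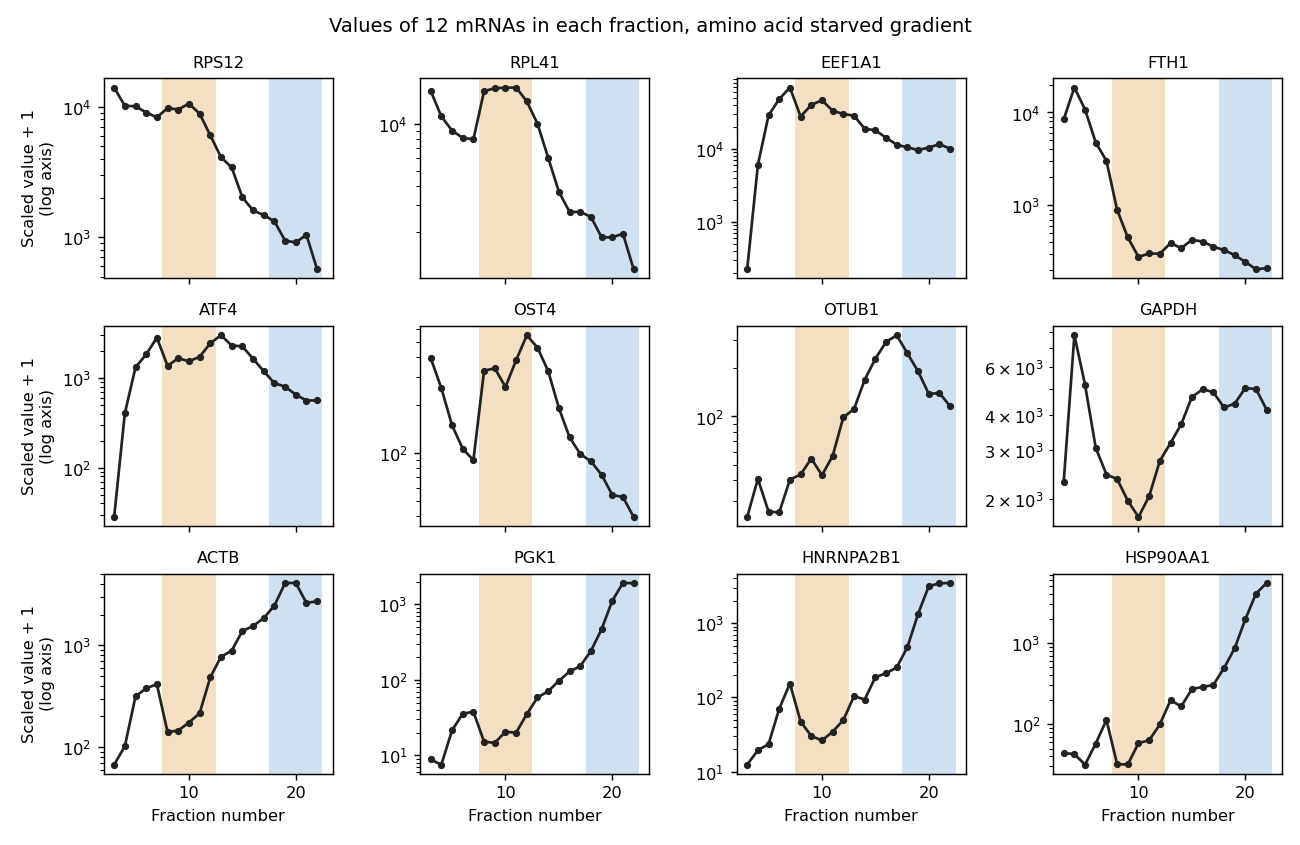
Values of 12 mRNAs in each of fractions 3 to 22 of the amino acid starved gradient, as scaled value + 1 on a log axis, with fractions 8 to 12 and 18 to 22 shaded. RPS12, RPL41 and OST4 are lower in the second shaded zone, GAPDH differs by a ratio of only 2.11, and ACTB, PGK1, HNRNPA2B1 and HSP90AA1 are higher there.

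Enzymes of glycolysis were higher in fractions 18 to 22. All 16 were past the size rule as a share, where 69.9% of all tested genes were, and 9 were higher relative to the median gene with none lower, against 13.6% and 20.2% of all tested genes. The list's median was 3.38 as a share and 1.32 relative to the median gene. GAPDH, its most abundant member, had the lowest difference. The values of GAPDH were 2358, 1969.8, 1721, 2045 and 2744 in fractions 8 to 12 and 4271, 4407, 5018, 4976 and 4191 in fractions 18 to 22. The zones did not overlap, but the ratio was 2.11 and the difference 1.09, or -0.96 relative to the median gene. ACTB, the cytoskeletal beta actin, had a difference of 3.91. ACTB stood at 139, 145, 173, 214 and 484 in fractions 8 to 12 and at 2446, 4073, 4088, 2594 and 2705 in fractions 18 to 22. ACTG1, the gamma actin, had a difference of only 1.13.

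Chaperones and proteasome subunits were past the size rule as higher in nearly every member as a share, where 69.9% of all tested genes were, and their counts relative to the median gene stand against 13.6%. All 8 subunits of the chaperonin CCT, which folds actin and tubulin, were past the rule as a share, with a median of 3.14. CCT2, CCT4, CCT5 and CCT7 were also higher relative to the median gene, of which all but CCT5 were listed after their values were seen. All 21 heat shock chaperones were higher as a share, and 6 relative to the median gene. HSP90AA1, the inducible cytosolic HSP90, had a difference of 5.12. HSP90AA1 had scaled values of 31.01, 30.8, 57.3, 62.2 and 98.2 in fractions 8 to 12 and 489, 861, 1968, 4079 and 5533 in fractions 18 to 22. Its value was highest in fraction 22, and the SD within fractions 18 to 22 was 1.47. HSPA8, the constitutive HSP70, was at 1.82, and HSPB1, a small heat shock protein, at 1.09. Both lay below the median gene, at -0.24 and -0.96. Of 33 proteasome subunits, 32 were higher as a share and 21 relative to the median gene, with medians of 3.43 and 1.38. PSMD2, of the regulatory particle base, had the highest difference at 4.81, and PSMD9, an assembly chaperone of that particle, the lowest at 1.00, with overlapping zones. All 16 endoplasmic reticulum chaperones were higher as a share, and 6 relative to the median gene, with PDIA3, a disulfide isomerase, at 4.15.

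The counts of cell cycle, splicing factor and lipid synthesis genes stand against the same 69.9% and 13.6% of all tested genes. Of 30 S phase and DNA replication genes, 29 were higher as a share and 12 relative to the median gene, with medians of 3.43 and 1.38. CDT1, a licensing factor of replication origins, was the exception at 0.96, and was lower relative to the median gene. MCM7, a subunit of the replicative helicase and the most abundant member, was at 3.84. Of 28 mitotic genes, 27 were higher as a share and 10 relative to the median gene, with a median of 3.43. CCNB1, cyclin B1, had the highest difference. The values of CCNB1 were 16.4, 16.2, 16.0, 21.1 and 38.5 in fractions 8 to 12 and 172, 255, 538, 1003 and 1032 in fractions 18 to 22. Its difference was 4.48. BIRC5, survivin, had the lowest at 1.21 and was not past the rule. Of 19 SR splicing factors and their relatives, 18 were higher as a share and 8 relative to the median gene, with SRSF5 at 3.98 and the kinase CLK1 at 0.47. Of 27 genes of cholesterol and fatty acid synthesis, 26 were higher as a share and 10 relative to the median gene. ACLY, which makes cytosolic acetyl-CoA, was highest at 4.55, and ELOVL6, a fatty acid elongase, lowest at 0.83.

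**Figure D3:**
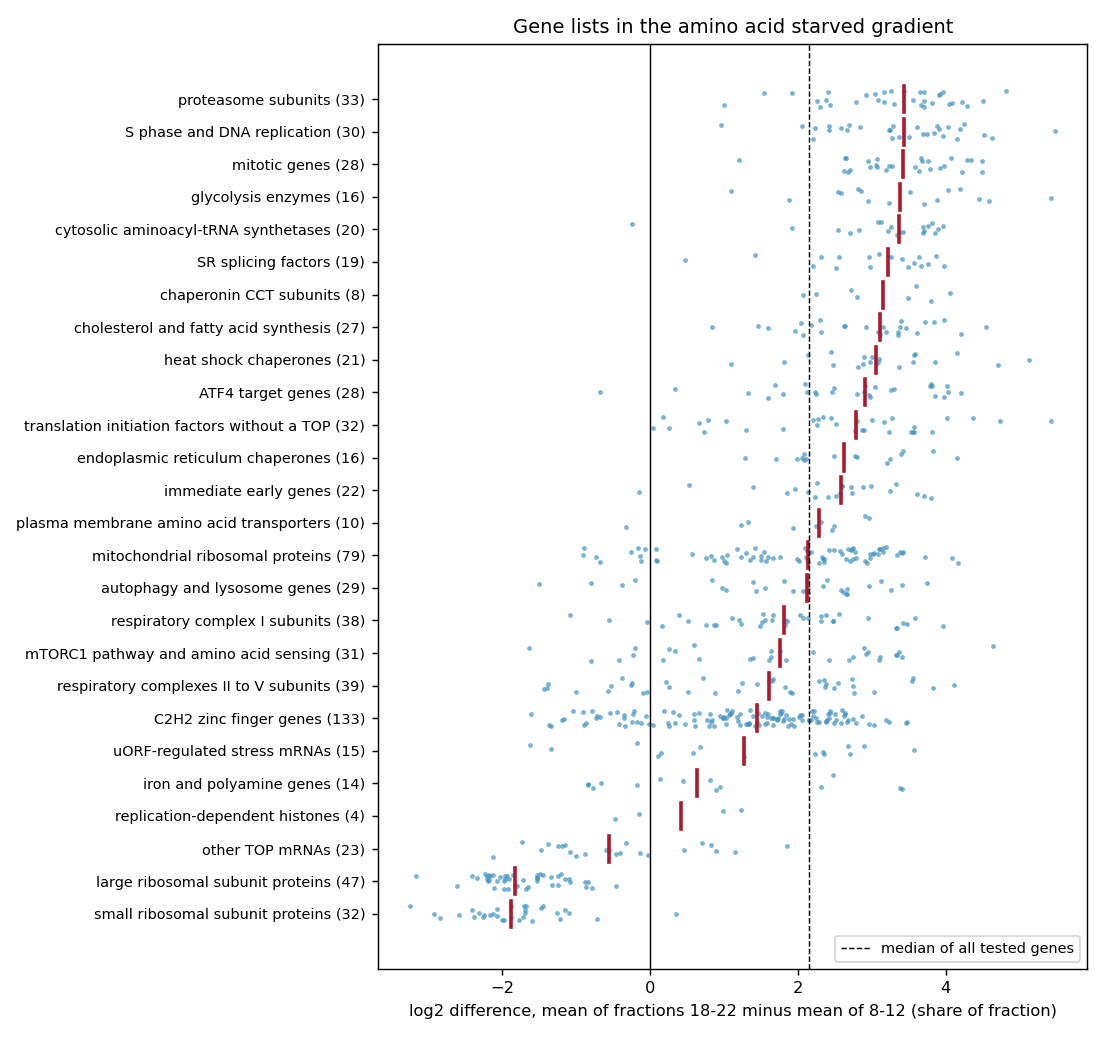
Differences (log2, fractions 18 to 22 minus 8 to 12, as a share of the fraction) of the tested members of 26 gene lists, with the number of members in brackets. Points are genes, red bars are list medians, and the dashed line is the median of all tested genes at 2.15. Medians run from -1.88 for small ribosomal subunit proteins to 3.43 for proteasome subunits, and members of most lists spread over several log2 units.

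Mitochondrial genes lay near the median gene and were split among themselves. Of 79 mitochondrial ribosomal proteins, 51 were higher as a share and none lower, against 69.9% and 2.73% of all tested genes. In the second reading 10 were higher and 14 lower, against 13.6% and 20.2%, with a list median of 0.08, and on the authors' deposited scale the median was -0.50. MRPL16 was highest at 4.17 and MRPL33 lowest at -0.91. MRPL33 stood at 46.1, 54.8, 66.7, 137 and 203 in fractions 8 to 12 and at 66.3, 48.5, 43.7, 53.7 and 25.5 in fractions 18 to 22. Its values in fractions 18 to 22 lay within or below the range of fractions 8 to 12. Of 38 subunits of respiratory complex I, 23 were higher as a share, and only NDUFC1, an accessory subunit, was lower, at -1.09. Of 39 subunits of complexes II to V, 19 were higher as a share, and UQCR11, UQCRH and ATP5E were lower, the last 2 listed after their values were seen. The shares of members higher in these 3 lists lay below that of all tested genes. UQCRC1, a core subunit of complex III, and UQCR11, one of its small subunits, stood at opposite ends of the list. UQCRC1 had scaled values of 17.0, 24.1, 23.7, 27.4 and 48.6 in fractions 8 to 12 and 373, 566, 585, 488 and 401 in fractions 18 to 22. The values of UQCR11 were 206, 242, 260.0, 562 and 834 in fractions 8 to 12 and 189, 144, 133, 150.2 and 76.5 in fractions 18 to 22. UQCRC1 was at 4.11 and UQCR11 at -1.43, without overlap in either gene. Against the median gene, 14 members of complexes II to V and 8 of complex I were lower, and 4 of each were higher, with medians of -0.44 and -0.24.

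Stress mRNAs with upstream open reading frames were divided, with medians of 1.27 as a share, -0.78 relative to the median gene and -1.35 on the deposited scale. Of 15, 7 were higher as a share, against 69.9% of all tested genes, and ATF4 and DDIT3 were lower. With centred values, 7 were lower, against 20.2%, and only EIF5, an initiation factor, was higher, at 1.51. ATF4, the transcription factor of the amino acid response (chromosome 22, 39520559 to 39522686), peaked in fraction 13 at 3012. ATF4 stood at 1368, 1667, 1540.4, 1729.9 and 2444 in fractions 8 to 12 and at 878, 803, 653, 561 and 562 in fractions 18 to 22. Its difference was -1.33, with all of fractions 18 to 22 below all of fractions 8 to 12. DDIT3, the transcription factor CHOP, was low in level. DDIT3 had scaled values of 12.5, 20.9, 21.7, 25.8 and 47.4 in fractions 8 to 12 and 8.97, 7.60, 9.12, 5.64 and 4.36 in fractions 18 to 22. Its difference was -1.63, and the zones did not overlap. PPP1R15A, a subunit of the phosphatase that acts on eIF2, was at 0.68 and not past the rule.

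Of 28 genes that ATF4 is known to switch on, 25 were higher as a share and none lower, against 69.9% and 2.73% of all tested genes. In the second reading 8 were higher and 2 lower, against 13.6% and 20.2%, the lower ones being NUPR1 and VEGFA, the latter listed after its values were seen. The medians were 2.90 and 0.85. PHGDH, the first enzyme of serine synthesis, was the most abundant. The values of PHGDH were 59.4, 76.7, 74.9, 98.1 and 163 in fractions 8 to 12 and 624, 991, 1400.0, 2259 and 3281 in fractions 18 to 22. Its difference was 4.02 without overlap. PSAT1, the next enzyme of that pathway, was highest at 4.21, and NUPR1, a stress regulator of chromatin, lowest at -0.67. Of 20 cytosolic aminoacyl-tRNA synthetases, 19 were higher as a share and 7 relative to the median gene, read against the same backgrounds. QARS, which charges tRNA with glutamine, was the exception. QARS stood at 224, 275, 317, 287 and 258 in fractions 8 to 12 and at 169, 197, 218, 245 and 347 in fractions 18 to 22. Its zones overlapped, with a difference of -0.25, and it was lower relative to the median gene. Of 10 plasma membrane amino acid transporters, 8 were higher as a share, none was higher relative to the median gene, and SLC36A4 was lower in that reading at -2.37. SLC3A2, the shared heavy chain of several transporters, was at 2.96, and SLC1A5, a glutamine carrier, at 2.24.

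Genes of the mTORC1 pathway and of amino acid sensing were divided as well. Of 31, 18 were higher as a share, a smaller part than the 69.9% of all tested genes, and RPS6KB2, an S6 kinase, was lower at -1.64. In the second reading 5 were higher and 10 lower, with a median of -0.30, where 13.6% and 20.2% of all tested genes were. RRAGA, a Rag GTPase that recruits mTORC1 to lysosomes, was at 4.63. EIF4EBP1, the repressor of the cap-binding factor eIF4E that mTORC1 inactivates, was at 0.26. Of 29 autophagy and lysosome genes, 20 were higher as a share, near the part of all tested genes, and IDS, a lysosomal sulfatase, was lower at -1.50. Against the median gene, 3 were higher and 5 lower, against 13.6% and 20.2% of all tested genes. CTSL, the protease cathepsin L, was highest at 1.69. Of 32 initiation factors and their regulators without a TOP tract, 25 were higher as a share, where 69.9% of all tested genes were. In the other reading 9 were higher and 6 lower, against 13.6% and 20.2% of all tested genes. They ran from EIF2A at -2.02 to EIF4A3 at 3.37. Of 22 immediate early genes, 20 were higher as a share, against 69.9% of all tested genes. Relative to the median gene 2 were higher and 2 lower, against 13.6% and 20.2%. EGR1, a transcription factor of this group, was at 2.60 from scaled values under 2 in fractions 8 to 12.

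A few other lists lay low. Of 14 iron and polyamine genes, 4 were higher as a share, against 69.9% of all tested genes, and 8 were lower relative to the median gene, with a median of 0.63 as a share and -2.02 on the deposited scale. FTH1, the ferritin heavy chain, peaked in fraction 4 at 18560.1, outside both zones. FTH1 had scaled values of 892, 449, 277, 301 and 300.0 in fractions 8 to 12 and 328, 289.7, 245, 203 and 209.6 in fractions 18 to 22. These zones overlapped, and the difference was -0.67. FTL, the ferritin light chain, was at -0.77, and ODC1, the first enzyme of polyamine synthesis, at 0.95. OAZ1, the antizyme that targets ODC1, was at 0.13. Of 133 C2H2 zinc finger genes, 73 were higher as a share, and ZNF544, ZNF655, ZNF749 and ZNF883 were lower, the last 3 listed after their values were seen. With centred values, 45 were lower, against 20.2% of all tested genes, and ZNF622, listed after its values were seen, was higher. The 4 tested replication-dependent histone genes were not past the rule as a share. Their mRNAs mostly lack the poly(A) tail by which this RNA was selected.

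Over the whole gradient, 4454 of the 7655 tested genes had their highest scaled value in fractions 18 to 22, 2807 in fractions 13 to 17, 127 in fractions 8 to 12 and 267 in fractions 3 to 7. Of the 1039 genes higher relative to the median gene, 1026 peaked in fractions 18 to 22. This follows largely from their selection, which required all of fractions 18 to 22 to lie above all of fractions 8 to 12. Of the 1544 genes lower relative to the median gene, 1156 peaked in fractions 13 to 17. The 79 ribosomal protein genes differed from that, since 44 peaked in fractions 3 to 7 and 32 in fractions 8 to 12, and RPL3, RPL14 and FAU later. In the second reading all 79 had a mean in fractions 13 to 17 that lay between those of the zones. The same held for 49.6% of all tested genes and for 89.4% of the 1544 lower genes. Within fractions 18 to 22 the lists were not level either. From fractions 18 and 19 to fractions 21 and 22 the differences of all tested genes had a median of -0.26 on the log2 scale. List medians were 2.24 for heat shock chaperones, 2.04 for mitotic genes and 1.87 for aminoacyl-tRNA synthetases. They were 1.70 for CCT subunits, 1.54 for S phase genes, and -0.70 and -0.66 for large and small ribosomal subunit proteins.

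The same contrast in the log phase gradient, which shares no library with this one, shows where amino acid starved cells differed. A gene was past the rule between gradients when the 2 differences were at least 1 apart and at least 0.5 apart, with the same sign, in odd and in even fractions taken separately. As a share, 3745 of 7370 genes (50.8%) stood above log phase and 141 (1.91%) below. Against the median gene, 736 (9.99%) stood above and 826 (11.2%) below. On the authors' deposited scale 1 gene stood above and 7025 below, and on the spike-in scale 144 and 2744, so the balance of the directions turned with the scale. The median difference of the compared genes was 1.17 in log phase. Across genes the differences of the 2 gradients correlated at 0.854, as a description. Ribosomal protein mRNAs made up 57.0% of fractions 8 to 12 and 28.2% of fractions 18 to 22 in log phase, against 70.5% and 20.5% here. With 1 gradient per condition, a difference between conditions cannot be told apart from one between gradients.

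The TOP lists had the lowest medians against log phase. Of the 23 other TOP mRNAs, 21 were below relative to the median gene and none above, with a median of -3.08 between the gradients. Of large subunit proteins 39 of 47 were below and of small subunit proteins 24 of 32, with medians of -1.90 and -1.67. In this reading 11.2% of all tested genes were below. As a share the counts below were 16, 21 and 14 for the lists in this order, against 1.91% of all tested genes. NACA, RPL23A, RPL29, RPL41 and RPL7 were above log phase as a share, where 50.8% of all tested genes were. All but RPL41 of these were listed after their values were seen. EEF1A1 had opposite directions in the 2 gradients as a share of the fraction. In log phase EEF1A1 was at 10472, 15345, 14118, 9510.5 and 8112 in fractions 8 to 12 and at 17728, 23994, 36748, 45609 and 38835 in fractions 18 to 22. There the zones did not overlap either, and the difference was 1.46 in log phase against -1.74 here. RPL5 and SLC25A6, a mitochondrial ADP/ATP carrier, both listed after their values were seen, were the other 2 genes lower here and higher in log phase. They went from 1.31 to -1.21 and from 1.08 to -1.48. EEF2 was at 2.65 in log phase, RACK1, a scaffold protein on the small subunit, at 2.35, and PABPC1 at 2.33, against -0.41, -0.59 and -0.56 here.

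ACTG1 and GAPDH, abundant mRNAs outside the TOP lists, were below log phase as well. ACTG1 was at 4.60 in log phase and 1.13 here. In log phase GAPDH was at 262, 286, 222, 312 and 226 in fractions 8 to 12 and at 2061, 3999, 8171, 10457 and 9218 in fractions 18 to 22. GAPDH thus had a difference of 4.47 in log phase, against 1.09 here. With centred values, 7 of 15 glycolysis enzymes and 7 of 8 CCT subunits were below log phase, against 11.2% of all tested genes. Their medians between the gradients were -0.83 and -1.42. TPI1, listed after its values were seen, was the glycolysis enzyme above log phase. As a share, GAPDH, ALDOA, GPI and LDHB of the glycolysis enzymes and CCT3 of the chaperonin subunits were below log phase and TPI1 was above, all but GAPDH listed after their values were seen. With centred values again, of 21 heat shock chaperones 8 were below, and DNAJB6, listed after its values were seen, was above. As a share HSP90AB1 and HSPA8 were below, and DNAJB6, HSPB1, HSPA9, HSPE1 and CHORDC1 above, of which all but HSPA8 and HSPB1 were listed after their values were seen. Of 38 complex I subunits, 10 were above log phase with centred values, against 9.99% of all tested genes, with a median of 0.58. As a share 27 were above and none below, against 50.8% and 1.91% of all tested genes. Of genes below log phase relative to the median gene and outside the TOP lists, 173 of 641 held a match to the motifs above, against 96 of 605 genes above log phase (15.9%).

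Genes above log phase included several with opposite directions in the 2 gradients. OTUB1, a deubiquitinase, showed the widest gap among genes with a mean of at least 50 in both gradients. The values of OTUB1 were 42.6, 53.8, 42.1, 55.9 and 97.8 in fractions 8 to 12 and 245, 189.6, 137, 139 and 115 in fractions 18 to 22. In log phase OTUB1 was at 388, 676, 581, 517 and 419.6 in fractions 8 to 12 and at 67.7, 56.6, 47.1, 43.2 and 36.6 in fractions 18 to 22. It was higher in fractions 18 to 22 here (1.50) and lower there in log phase (-3.34), without overlap in either gradient. In the second reading it was at -0.55 here, so its direction here turned with the reading. FKBP3, a nuclear prolyl isomerase, was at 3.15 here and -1.61 in log phase. It was past the rule in opposite directions too, and lay above the median gene here, at 1.10. MORF4L2, a chromatin protein, went from -0.85 in log phase to 3.48, RANBP1, a regulator of the GTPase Ran, from -2.77 to 1.29, TIMM17A, a subunit of a mitochondrial import channel, from -2.22 to 1.74, and GRB2, a signalling adaptor, from -0.45 to 3.42. In all, 13 of the 7655 tested genes were past the size rule as higher here and as lower in log phase as a share. All of these except FKBP3 had a difference here below 2.15, the median of all tested genes. RAN, listed after its values were seen, was the most abundant of the 13, at 1.50 here and -1.90 in log phase. With centred values RAN was at -0.55 here, RANBP1 at -0.76 and TIMM17A at -0.31, so their directions here turned with the reading too.

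**Figure D4:**
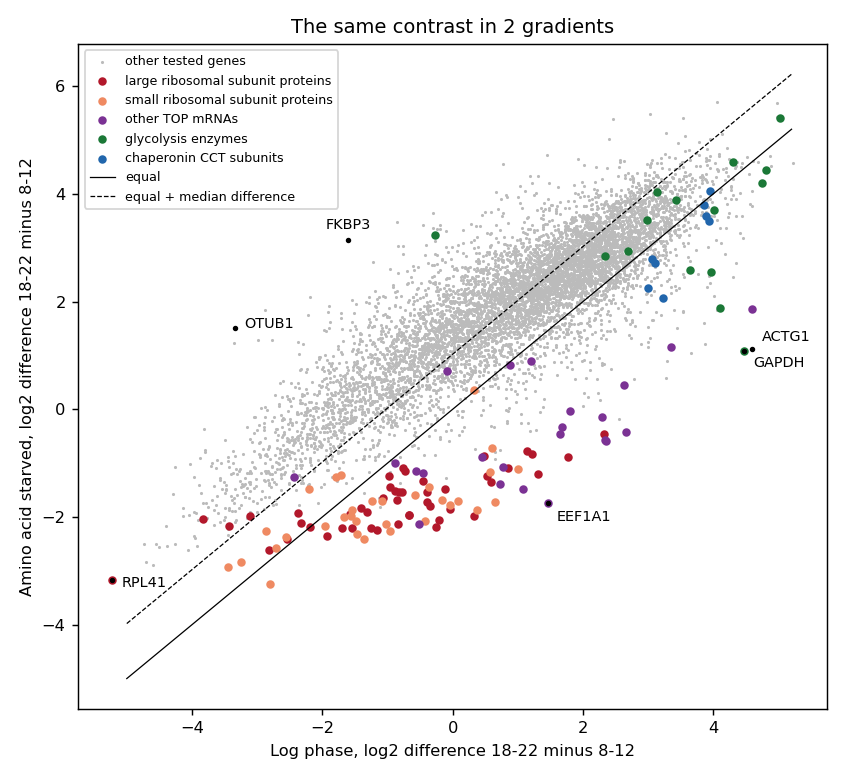
Differences (log2, fractions 18 to 22 minus 8 to 12, as a share of the fraction) of each gene in the log phase gradient (horizontal) and in the amino acid starved gradient (vertical). The dashed line is equality shifted by the median difference between the gradients, 1.02. Most TOP mRNAs, CCT subunits and glycolysis enzymes lie below that line, with ACTG1 and GAPDH among the farthest, and OTUB1 and FKBP3 lie above it.

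The serum starved gradient, another gradient that shares no library with this one, was much closer. As a share, 269 of 7514 genes (3.58%) stood above serum starvation and 3 (0.0399%) below. These 3 were FTH1, FTL and CAMK4, the last listed after its values were seen. Against the median gene, 30 (0.399%) stood above and 26 (0.346%) below. On the deposited scale 6 stood above and 510 below, and on the spike-in scale 28 and 25. No gene was past the size rule in opposite directions in the 2 gradients. The median difference of the compared genes was 1.83 in the serum starved gradient, and across genes the differences correlated at 0.967. Of the TOP lists only RPL14 and RPSA, listed after their values were seen, were past the rule as below serum starvation relative to the median gene. EEF1A1 was at -1.50 without serum and -1.74 without amino acids.

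The ferritins differed between the starvations. Without serum FTH1 was at 632, 421, 356, 378 and 358 in fractions 8 to 12 and at 874, 874, 741, 566 and 575 in fractions 18 to 22. With serum starvation 3 of the 5 fractions from 18 to 22 were above all of fractions 8 to 12, and the difference was 0.77, against -0.67 after amino acid starvation. FTL went from 0.51 to -0.77. Among genes above serum starvation with a mean of at least 50 in both gradients, GLO1, a glyoxalase, had the widest gap. GLO1 stood at 52.4, 78.6, 135, 136 and 372 in fractions 8 to 12 and at 365, 273, 238, 211 and 210.4 in fractions 18 to 22. Without serum GLO1 was at 76.4, 173, 417, 362 and 781 in fractions 8 to 12 and at 239.6, 188, 121, 118 and 98.3 in fractions 18 to 22. Its difference was 1.04 here and -0.92 without serum, and the zones overlapped in both gradients. MAP1LC3B, a marker protein of autophagosomes, was at 1.55 here and -0.01 without serum, and BIRC5 at 1.21 and -0.31. EIF1AX, an initiation factor of the scanning ribosome, was at 2.77 and 1.27, TIMM17A at 1.74 and 0.31, and RBX1, a subunit of cullin ubiquitin ligases, at -1.02 and -2.47. As a share, ATF4 was at -1.33 here, -2.23 without serum and -2.87 in log phase, below 0 in all 3 gradients. Relative to the median gene it was at -3.39, -3.90 and -3.86. In that reading it was not past the rule between gradients. As a share ATF4 was past the rule above log phase, by 1.54, as were 50.8% of all tested genes, but not against serum starvation.

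**Figure D5:**
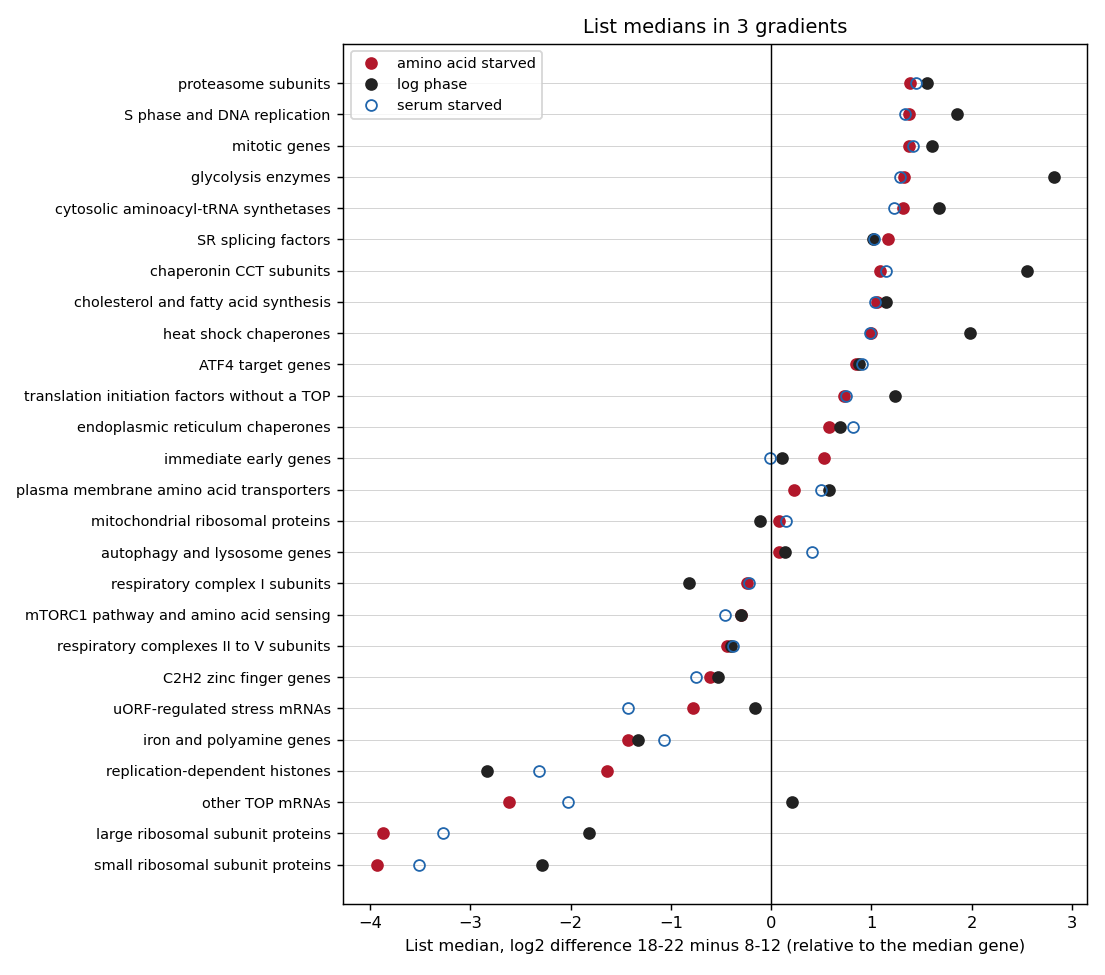
Median difference (log2, fractions 18 to 22 minus 8 to 12) of 26 gene lists relative to the median gene of each fraction, in the amino acid starved (red), log phase (black) and serum starved (open blue) gradients. Other TOP mRNAs stand at -2.62 without amino acids, -2.03 without serum and 0.21 in log phase, and CCT subunits at 1.09, 1.15 and 2.55.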

How the data were processed

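Stranded libraries of poly(A)+ RNA were made from gradient fractions, per the labels' protocols, and the submitters' processing notes name kallisto 0.44.0, sleuth 0.29.0 and hg38. The authors deposited a signal for each gene symbol in each fraction. The table is named as TPM, but its columns sum to different totals, so each carries a further scale. Neither that scale nor the depth per library is stated in the sources used here, so no counting error is attached. In each column 29 ERCC and 1 luciferase spike-in rows were dropped and the 11074 genes rescaled to 1000000. Log2 differences used a pseudocount of 1 and a mean of at least 5. Of 7655 tested symbols, 7630 matched RefSeq (GRCh38.p14).

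The members and gene lists were chosen with earlier results of these data known, so no list is independent evidence. Named genes are the 8 highest and 8 lowest differences (mean of at least 50), the most abundant and extreme members of each list, a preset list of well-known genes, and the 6 highest and 6 lowest between gradients. Those outside this rule are said to be listed after their values were seen. Scripts were tested on simulated data and used Python 3.11.15, pandas 2.3.3, NumPy 2.4.6 and Matplotlib 3.10.9. Alternatives changed the pseudocount, the filter, the scaling, the averaging, the size rule and the fractions used. No p-value was computed, since each condition had 1 gradient. The lysates were not analysed here.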

Additional observations from a re-analysis of the deposited data

Results flagged for a closer look

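Of 214 sets of 5 fractions (both zones of 107 genes), 9 had 1 fraction far from the other 4 by Dixon's criterion at its 95% level, where chance gives about 1 in 20. In 8 of the 9 sets this was fraction 12, the last of its zone. Fraction 12 was high in the genes with higher values in fractions 18 to 22, at a scaled value of 8.80 for C21orf59, 9.66 for RAB7A, 34.9 for FARSA, a phenylalanyl-tRNA synthetase subunit, 7.88 for CTSL and 61.9 for MAP1LC3B. It was low in ribosomal protein genes, at 13995 for RPL41, 5431 for RPS27 and 3643 for RPS25. The other set was PSMD2, whose scaled value of 207 in fraction 18 was the lowest of its zone. The part of fraction 12 in the differences was not tested apart from leaving it out, which moved none of the 107 genes by more than its spread within the zones.

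Among the 107 genes, 6 had opposite directions of the difference between fractions 18 to 22 and 8 to 12 in the amino acid starved and log phase gradients. This is as a share of the fraction, with no overlap of fractions in either gradient. The count follows largely from selection. RPL5, SLC25A6 and RAN were listed after their values were seen, and OTUB1 and FKBP3 were named for their gap from log phase. Of all 7655 tested genes, 3 were past the size rule as lower here and higher in log phase, and 13 the reverse. The amino acid starved value lay below the log phase value for EEF1A1 by a log2 difference of -3.20, for SLC25A6 by -2.56 and for RPL5 by -2.52. It lay above it for OTUB1 by 4.84, for FKBP3 by 4.76 and for RAN by 3.40. Relative to the median gene OTUB1 was at -0.55 here and -4.33 in log phase, and RAN at -0.55 and -2.89, so these 2 had the same direction in that reading. With 1 gradient per condition, the difference was not tested.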

How the results depend on the processing

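Scaling moved the counts most. With each fraction centred on its median gene, 1039 genes were higher and 1544 lower in fractions 18 to 22, 736 stood above and 826 below log phase, and 30 above and 26 below serum starvation. With TOP mRNAs left out of the column totals these counts were 1784, 1309, 820, 758, 112 and 14. On the deposited scale they were 17, 511, 1, 7025, 6 and 510. On the spike-in scale 2803 were higher, 144 stood above and 2744 below log phase, and 28 above and 25 below serum starvation. The cause was not tested beyond the scale itself. A mean of at least 20, which tests fewer genes, gave 2904 higher, 2099 above log phase and 141 above serum starvation. The small counts against serum starvation also moved. Above it stood 510 genes with a pseudocount of 0.1, 82 with 5, 517 in odd-numbered fractions and 605 in inner fractions. Below it stood 6 with a pseudocount of 0.1, 5 without a filter, 12 in odd-numbered and 8 in even-numbered fractions. Leaving out 1 fraction number at a time gave 5333 to 5962 higher, 199 to 290 lower, 3388 to 4061 above and 133 to 157 below log phase, and 203 to 401 above and 2 to 5 below serum starvation, with 5 without fraction 10.

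Centring, or leaving out the TOP mRNAs, turned the sign for 9 genes: VIM (-0.20 and -0.037), GAPDH (-0.96 and -0.80), HSPB1 (-0.96 and -0.79), HSPA8 (-0.24 and -0.075), PSMB4 (-0.51 and -0.35), SDF2L1 (-0.77 and -0.53), OTUB1 (-0.55 and -0.38), ACTG1 (-0.93 and -0.77) and RAN (-0.55 and -0.39). It turned the list medians of respiratory complex I (-0.24 and -0.068), complexes II to V (-0.44 and -0.25), uORF stress mRNAs (-0.78 and -0.57) and zinc finger genes (-0.61 and -0.27). Centring alone turned mTORC1 and amino acid sensing (-0.30). No called direction of the 107 named or listed genes turned with a fraction left out, in odd or even fractions, or with another pseudocount. Depth per library is unknown, so low values carry an unknown counting error. No paired analysis was possible because the fraction numbers mark positions in 1 gradient and not replicates.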
